A study of Homo sapiens with 6 samples.

Results

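The lysosomal genes described here are 43 genes for hydrolases and membrane proteins of the lysosome, chosen by gene symbol from a list that covers cathepsins and other proteases, glycosidases, sulfatases, sphingolipid hydrolases, membrane proteins and the transcription factor TFEB. All 43 were found among the 62703 genes of the deposited count table, and all 43 passed the filter on low counts that left 18544 genes for testing. Expression was read in 6 RNA libraries of A549 cells, a long-established human lung adenocarcinoma line: 3 from cells grown in a hydrogel named AlgLung and 3 from cells grown in one named S-AlgLung. The labels name no further treatment, no genotype and no time in the hydrogel, and they do not spell out the S; the series as a whole concerns matrix sulfation in tumours. They describe the line in culture in DMEM/F12 with serum, and 1 line stands for both hydrogels. Nothing in the labels tells if the replicates came from separate cultures. The p-values therefore reflect only how far these libraries spread, and that spread may be technical.

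Lysosomes are acidic compartments in which proteins, glycans, glycosaminoglycans and lipids delivered by endocytosis and autophagy are broken down. Sulfated glycosaminoglycans such as heparan, dermatan, keratan and chondroitin sulfate are taken apart from their ends by exoglycosidases and sulfatases that act in turn, and inherited loss of any of several of these enzymes causes a mucopolysaccharidosis. Many lysosomal genes carry a palindromic promoter element, called CLEAR, that is bound by TFEB and its relatives, and lung epithelium also secretes some of the same proteases.

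Total counts were 22978408 to 26495444 per library. The 10 A549 and epithelial markers were all tested, and their summed level was 26770 to 35530 CPM (reads for each 1e6 counted, scaled with TMM factors) in AlgLung and 17910 to 34070 CPM in S-AlgLung, with none called. Of the other cell type markers, 2 of 7 fibroblast and 2 of 5 endothelial genes passed the filter, and none of these was called. In 14 of the 43 genes the exons overlap another gene that has at least 25% as many counts, which can make their values uncertain. In CTSD, TPP1, NAGLU, HEXA, MAN2B1, IDS, CD68, NPC2 and MCOLN1 such a gene lies on the same strand, and in CTSA, GLA, SGSH, GALNS and NPC1 only on the other strand. The shared part of the exon bases differs widely, from 0.12% in SGSH and 0.32% in GALNS to 81.6% in CD68. CTSZ and IDUA fall under the 25% cut though 31.7% and 13.2% of their exon bases are shared.

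Libraries of the same hydrogel differed among themselves in these genes, in both hydrogels. AlgLung replicate 1 lay below both other AlgLung libraries in 29 of the 43 lysosomal genes, and AlgLung replicate 2 lay above both others in 29. S-AlgLung replicate 3 lay outside the range of its partners in 36 of the 43 (83.7%, against 78.4% of all tested genes), below both in 21 and above both in 15. That share was no higher than in AlgLung replicate 2, at 86.0% (79.5% of all tested genes).

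The position of a library within its hydrogel moved with base composition. For S-AlgLung replicate 3, the log2 difference from the mean of its partners had a Spearman rho of -0.75 with the GC content of the transcript over the 43 genes, and -0.40 over the 17835 tested genes with a GC value. For AlgLung replicate 2 the rho was 0.67 over the 43 genes and 0.61 over all of those. The points of each rho share a library, so the correlations are a description. The 43 transcripts ran from 37.3% GC in ASAH1 to 69.3% in IDUA, with a median of 52.5% against 49.5% for all tested genes. Lysosomal genes at or above their median GC had a median difference of -0.32 in S-AlgLung replicate 3, and those below it had 0.24. Of the fits without 1 library, the one without S-AlgLung replicate 3 called the most genes, so values without it are given beside each called gene of the 43. That fit was picked by its number of calls, so its adjusted p add no support to a call. What set the libraries apart was not tested.

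**Figure D1:**
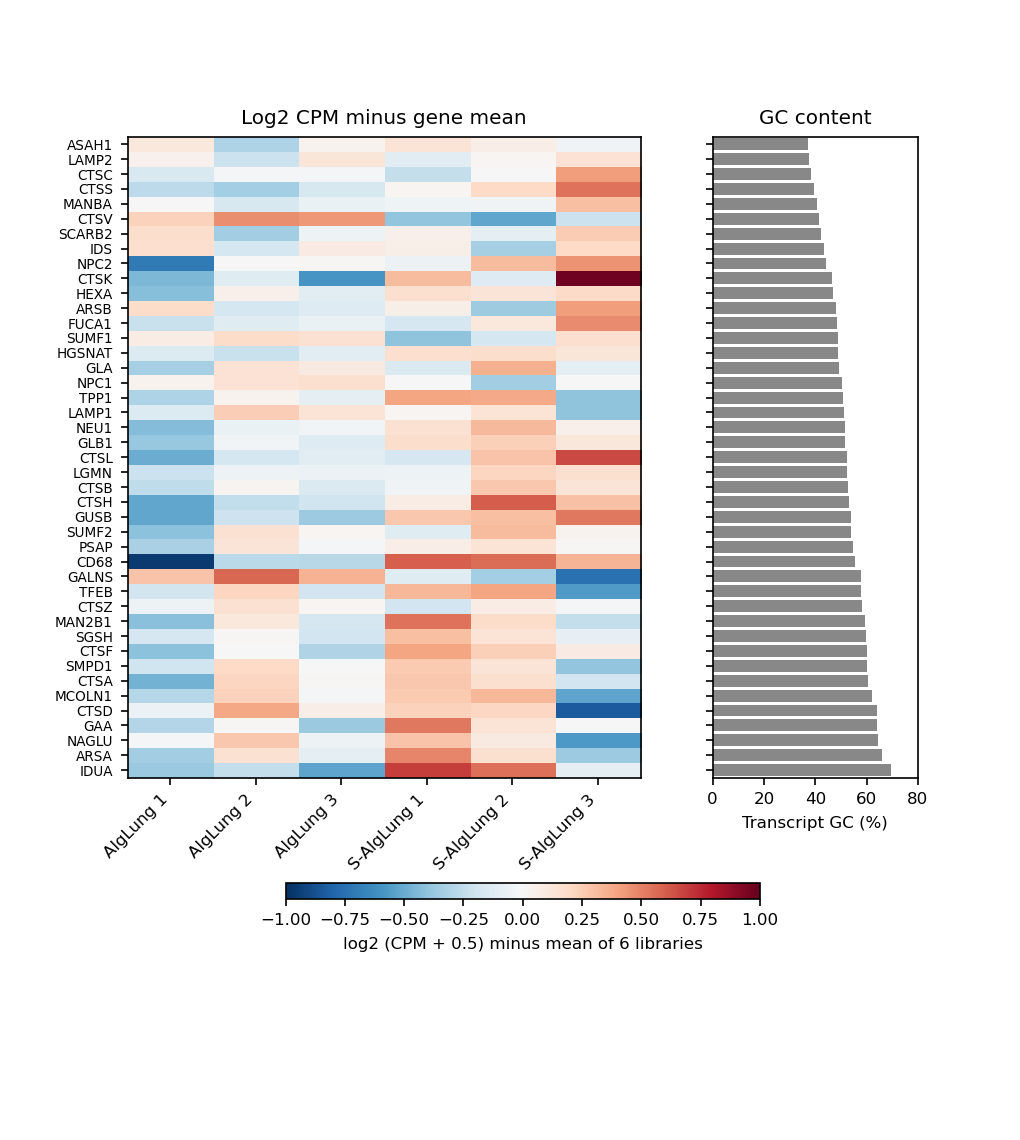
Heat map of log2(CPM + 0.5) minus the mean of the 6 libraries for each of the 43 lysosomal genes (left; colours end at 1 and -1), ordered by the GC content of the transcript in percent (right; bars start at 0). S-AlgLung 3 is mostly above the gene mean at the low-GC end and below it for several genes at the high-GC end, such as CTSD and NAGLU, unlike S-AlgLung 1 and 2.

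The question put to these genes is whether growth in S-AlgLung went with other levels of lysosomal transcripts than growth in AlgLung. In S-AlgLung, 2 of the 43 genes rose and 1 fell at an adjusted p under 0.05 in edgeR's quasi-likelihood F test: IDUA, the alpha-L-iduronidase of heparan and dermatan sulfate breakdown, and CD68, a heavily glycosylated lysosomal membrane protein, were higher, and GALNS, the sulfatase that removes 6-sulfates from keratan and chondroitin sulfate, was lower. These 3 genes are 6.98% of the list, against 5.14% of all tested genes called (3.15% higher and 1.99% lower), so the count of calls is near the background. Only 7 of the 43 differed by 1.5-fold or more between group means, and 23 had a log2 fold change of at most 0.25 in size, with a median standard error of 0.24.

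The small differences ran mostly upwards without passing the test. The log2 fold change was above 0 in 34 of the 43 genes (79.1%), against 53.4% of all tested genes, with a median of 0.16 against 0.03. Without AlgLung replicate 1, 28 of the 43 were above 0, with a median of 0.14 against -0.015 for all tested genes. Without any other single library, 31 to 33 of the 43 were above 0. The 3 values of each hydrogel did not overlap in 14 of the 43 genes (32.6%, against 18.4% of all tested genes): 11 were higher in S-AlgLung (10.4% of all genes were) and 3 were lower (8.05% were). When libraries were scaled by total counts alone, the median of all genes moved by -0.10, to -0.074. Of the 43 genes, 29 were then above 0, with a median of 0.075. The summed level of the 43 genes was 6934, 8824 and 7944 CPM in AlgLung and 9127, 9301 and 8075 CPM in S-AlgLung, so the groups overlapped. The sum was 0.790% of the scaled reads in AlgLung and 0.883% in S-AlgLung. Bulk libraries of 1 line cannot tell a shift in all of its cells apart from a shift in some of them.

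**Figure D2:**
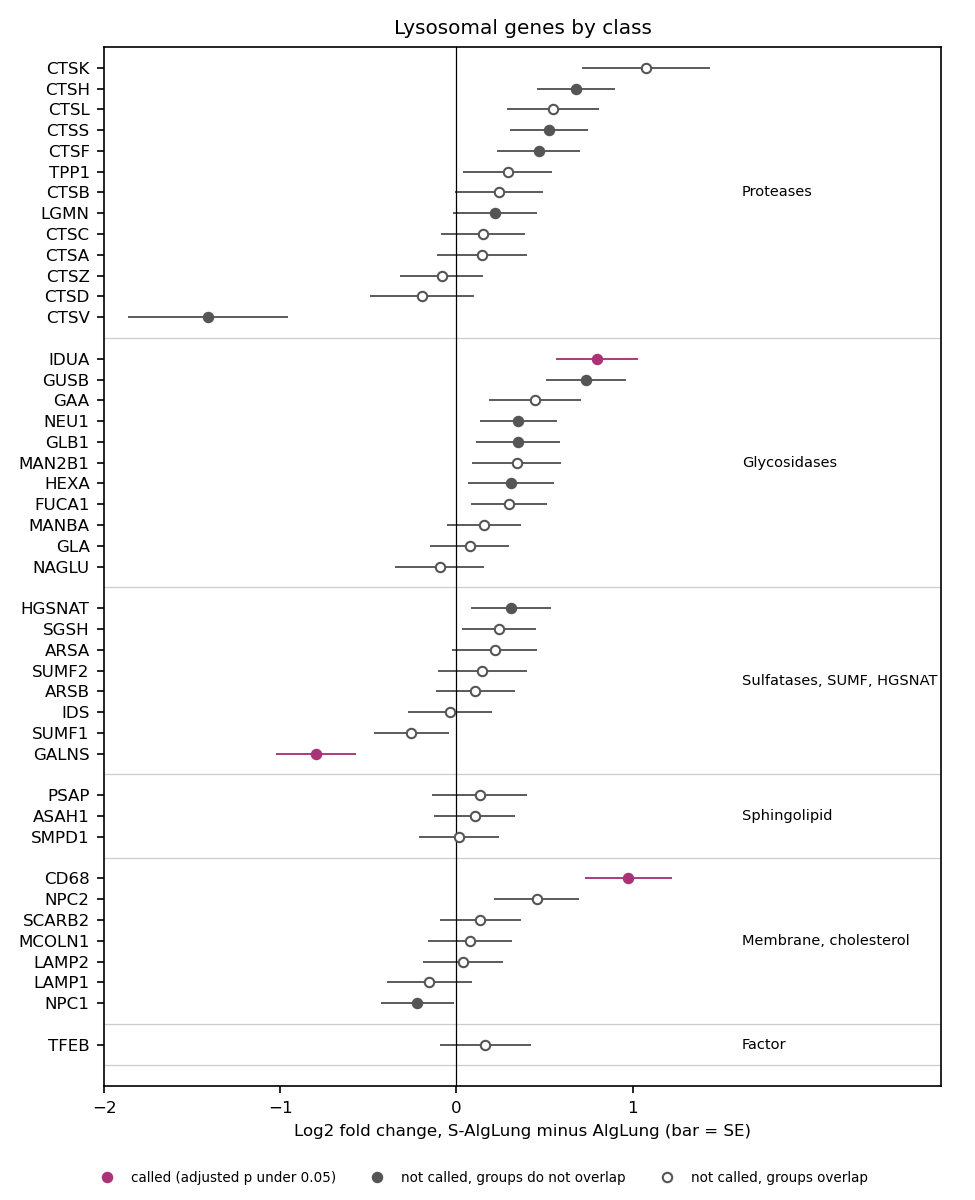
Log2 fold change of each of the 43 lysosomal genes, S-AlgLung minus AlgLung (points, bars are the standard error), sorted within 6 classes. Most points lie between 0 and 0.5, IDUA, CD68 and GALNS are the called genes (magenta), and filled grey points mark the other 11 genes whose groups did not overlap.

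Transcript levels per length spanned several orders of magnitude. PSAP, the precursor of the saposins that present sphingolipids to their hydrolases, was the most abundant at a mean of 661 RPKM (reads per kilobase of exon for each 1e6 counted), followed by the aspartic protease CTSD at 208.8 RPKM and the glycogen-degrading GAA at 100.8 RPKM. SUMF2, NAGLU and LGMN followed at 62.8, 60.7 and 60.5 RPKM, and their neighbouring levels differed by less than the spread between libraries. At the low end stood CTSH at 1.21 RPKM, the osteoclast collagenase CTSK at 0.227 RPKM and CTSV at 0.0843 RPKM. The regulator TFEB was at 1.25 RPKM. This order depends on the exon bases listed for each gene, which may exceed the length of the transcripts made. CTSH, with 13757 listed bases, was below TFEB, with 6722, in RPKM. In CPM, CTSH was above TFEB, with AlgLung and S-AlgLung means of 12.85 and 20.54 against 7.90 and 8.87. CTSV was the only 1 of the 43 under 1 CPM in both hydrogels.

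**Figure D3:**
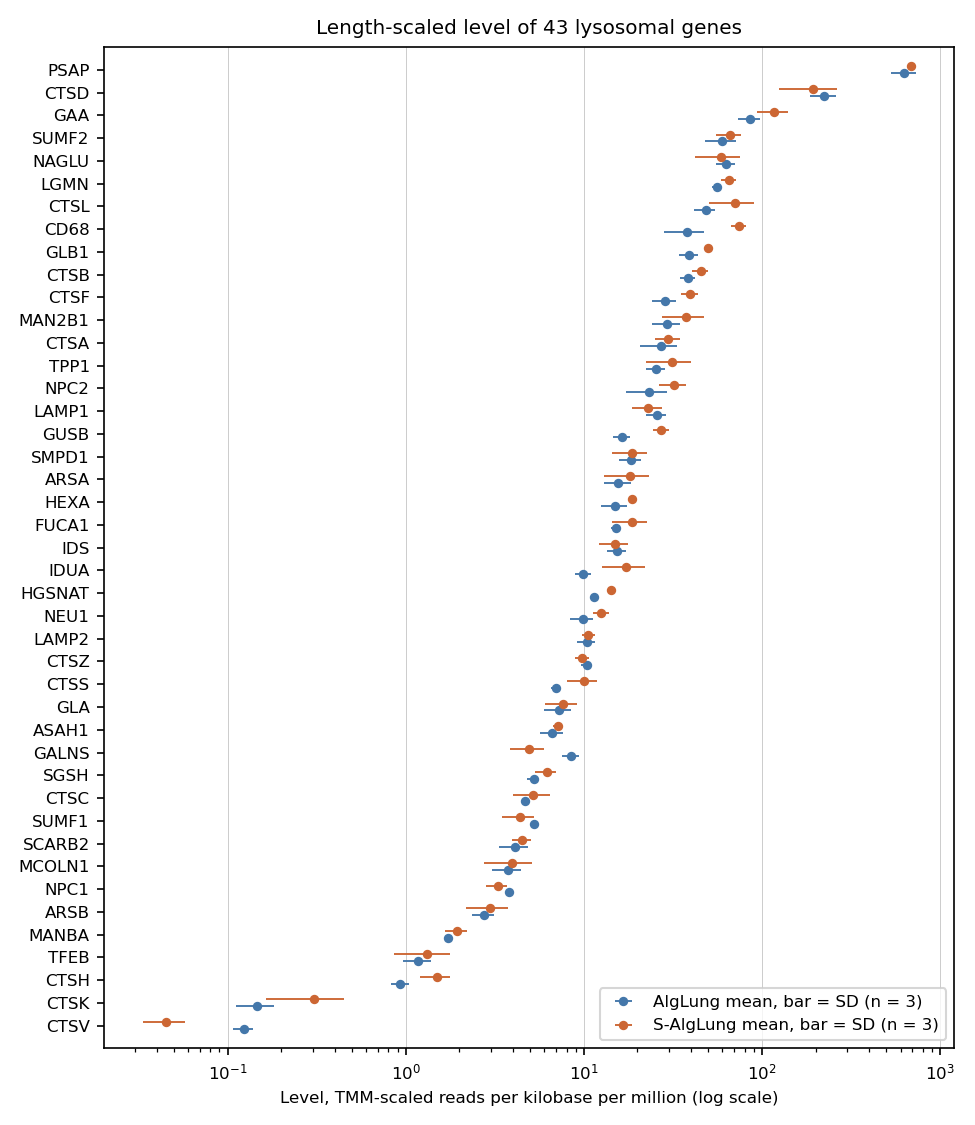
Level of each of the 43 lysosomal genes in RPKM on a log axis, as the mean of 3 libraries with its SD for each hydrogel. PSAP lies far above the rest, CTSK and CTSV far below, and the hydrogel means of most genes lie within the spread of the libraries.

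The RefSeq promoter table (GRCh38.p14, 250 bases before to 50 after each gene's start) held 30 of the 43 genes. The E-box core CACGTG, a palindrome that reads the same on both strands, was present in 9 of these 30 promoters (30%) against 7.44% of 27305 promoters in the table. Its longer form TCACGTGA, the central part of the CLEAR element, was present in 5 of 30 (16.7%) against 1.04%, and every match to it also holds CACGTG. With a G before and a C after it, the full palindrome was present in 3 of 30 (10%), GAA, MCOLN1 and GALNS, against 0.381%. A match is a description of the letters, not of binding. The matches to TCACGTGA are shown because they mark which lysosomal genes carry the element named above, each as 30 bases read 5′ to 3′ on the gene's strand, with TCACGTGA in capitals.
GALNS (chr16:88857104-88857133, - strand): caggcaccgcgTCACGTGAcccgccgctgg
GAA upstream match (chr17:80101493-80101522, + strand): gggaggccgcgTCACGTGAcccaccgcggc
GAA downstream match (chr17:80101538-80101567, + strand): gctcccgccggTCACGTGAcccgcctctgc
CTSA (chr20:45891298-45891327, + strand): ggcgccggagtTCACGTGActcgtacacat
LAMP1 upstream match (chr13:113297199-113297228, + strand): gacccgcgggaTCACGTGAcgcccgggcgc
LAMP1 downstream match (chr13:113297226-113297255, + strand): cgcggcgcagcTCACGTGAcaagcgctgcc
MCOLN1 upstream match (chr19:7522571-7522600, + strand): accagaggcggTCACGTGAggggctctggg
MCOLN1 downstream match (chr19:7522598-7522627, + strand): gggctaccgggTCACGTGAccgaggcacag
Relative to the RefSeq start of the gene, the C of the core lay at -174 in GALNS, at -76 and -31 in GAA, at -25 in CTSA, at -28 and -1 in LAMP1 and at -41 and -14 in MCOLN1. The log2 fold changes of the 5 genes with TCACGTGA were -0.80 in GALNS, 0.45 in GAA, 0.15 in CTSA, -0.16 in LAMP1 and 0.08 in MCOLN1. Only GALNS among them was called.

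The called genes differed in this respect. The 250 bases before the RefSeq start of each are given so that the 3 can be read against each other, with CACGTG in capitals. The gene spans of the count table, given below, begin upstream of these RefSeq starts, so each window lies partly within its gene's span. GALNS held 2 copies, and IDUA and CD68 held none in the 300-base window; a window without these letters says nothing of the factor.
IDUA (chr4:986794-987043, + strand): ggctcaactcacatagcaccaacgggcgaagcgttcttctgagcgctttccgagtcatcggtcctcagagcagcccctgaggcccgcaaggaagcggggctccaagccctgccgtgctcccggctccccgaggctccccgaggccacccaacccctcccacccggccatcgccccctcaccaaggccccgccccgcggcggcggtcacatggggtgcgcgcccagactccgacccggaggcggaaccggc
CD68 (chr17:7579388-7579637, + strand): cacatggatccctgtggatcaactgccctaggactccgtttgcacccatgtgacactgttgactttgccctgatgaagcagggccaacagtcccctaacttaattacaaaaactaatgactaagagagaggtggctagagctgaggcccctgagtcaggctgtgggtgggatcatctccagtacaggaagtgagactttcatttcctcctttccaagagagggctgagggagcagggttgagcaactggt
GALNS (chr16:88856948-88857197, - strand): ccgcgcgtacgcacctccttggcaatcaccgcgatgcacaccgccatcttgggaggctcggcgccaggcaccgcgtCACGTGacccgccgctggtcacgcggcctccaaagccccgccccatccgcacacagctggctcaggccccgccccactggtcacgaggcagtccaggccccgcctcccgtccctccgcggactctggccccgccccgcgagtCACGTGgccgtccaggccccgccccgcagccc
The GC content of these 250 bases was 72.0% in IDUA, 51.6% in CD68 and 75.2% in GALNS.

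Among the 13 proteases none was called, and the median log2 fold change was 0.24. The groups did not overlap in 5 of them, against 18.4% of all tested genes. CTSH, CTSS, CTSF and LGMN were higher in every S-AlgLung library, and CTSV was lower in every one. The summed level of the 13 was 3086 ± 395 CPM in AlgLung and 3309 ± 376 CPM in S-AlgLung (mean ± SD, n = 3). CTSD alone had means of 1270 ± 208 and 1109 ± 400 CPM of these reads.

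CTSH, a cysteine protease with aminopeptidase activity that takes part in surfactant protein maturation in lung, had 11.1, 13.5 and 14.0 CPM in AlgLung and 17.1, 24.7 and 19.8 CPM in S-AlgLung. All S-AlgLung values lay above all AlgLung values, and the log2 fold change of 0.68 (SE 0.22) had an adjusted p = 0.0788. Without S-AlgLung replicate 3 it was 0.67 with an adjusted p = 0.0231, past the threshold, while leaving out any other single library kept the adjusted p above 0.05. CTSS, a cysteine protease that stays active near neutral pH, had 47.5, 44.96 and 50.8 CPM in AlgLung against 57.7, 65.4 and 83.1 CPM in S-AlgLung. Its groups were apart with replicate 3 of S-AlgLung highest, and the log2 fold change was 0.53 (SE 0.22, adjusted p = 0.232).

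CTSF, a cysteine protease with a long propeptide, had 106, 142 and 115 CPM in AlgLung and 186, 167 and 149.7 CPM in S-AlgLung. The lowest S-AlgLung value was close to the highest AlgLung value, and the log2 fold change was 0.47 (SE 0.24, adjusted p = 0.363). LGMN, the asparaginyl endopeptidase that processes other cathepsins, had 201, 225 and 224 CPM in AlgLung against 225, 270.4 and 261 CPM in S-AlgLung. Its groups were separated by less than 1 CPM, with a log2 fold change of 0.22 (adjusted p = 0.771).

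CTSV, a close relative of CTSL, had 0.767, 0.989 and 0.952 CPM in AlgLung and 0.317, 0.253 and 0.426 CPM in S-AlgLung. Each AlgLung library was above each S-AlgLung library, yet the gene rested on 90 reads in all 6 libraries. The log2 fold change was -1.41 (SE 0.45, adjusted p = 0.0731). Leaving out S-AlgLung replicate 3 gave -1.68 with an adjusted p = 0.0341, and CTSV was not called without any other single library (adjusted p up to 0.244).

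CTSK and CTSL had larger values in S-AlgLung means but overlapping libraries. CTSK had 1.15, 1.57 and 0.993 CPM in AlgLung against 2.31, 1.56 and 3.91 CPM in S-AlgLung, from 287 reads in total, and replicate 3 was highest. Its log2 fold change was 1.08 (SE 0.36, adjusted p = 0.0907), and 0.61 without that library. It passed the test without S-AlgLung replicate 2 (1.33, adjusted p = 0.0153) and with no filter on low counts (1.06, adjusted p = 0.0465). CTSL, a major endopeptidase of the lysosome, had 248.7, 311 and 325 CPM in AlgLung against 312, 427 and 555 CPM in S-AlgLung (log2 fold change 0.55, adjusted p = 0.324), and 0.30 without that library.

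CTSD, the main aspartic protease, had 1102, 1504 and 1205 CPM in AlgLung and 1348, 1331 and 647 CPM in S-AlgLung. S-AlgLung replicates 1 and 2 lay within the AlgLung range, and replicate 3 lay below every other library. The log2 fold change was -0.20 (SE 0.29, adjusted p = 0.854), and 0.05 with that library left out. The remaining proteases CTSA, CTSB, CTSC, CTSZ and TPP1 had log2 fold changes from -0.08 in CTSZ to 0.29 in TPP1 and overlapped between hydrogels.

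The 11 glycosidases had the highest median log2 fold change of the classes, 0.34, with 1 of them called (9.09%, against 5.14% of all tested genes). In 5 of the 11 the groups did not overlap, all with S-AlgLung higher: GUSB, IDUA, NEU1, GLB1 and HEXA. Of all tested genes, 10.4% were apart in that direction. The summed level was 1292, 1644 and 1395 CPM in AlgLung and 2057, 1825 and 1627 CPM in S-AlgLung. The lowest S-AlgLung sum, from replicate 3, was below the highest AlgLung sum. Scaled by total counts alone, GLA changed sign, from 0.07 to -0.03, and the other 10 kept theirs.

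IDUA, which removes terminal iduronic acid from heparan and dermatan sulfate, had 40.4, 44.4 and 36.2 CPM in AlgLung and 84.7, 76.8 and 48.8 CPM in S-AlgLung. The groups did not overlap, and S-AlgLung replicate 3 lay nearest to AlgLung. The mean rose 1.74-fold, from 40.3 CPM (SD 4.10, n = 3) to 70.1 CPM (SD 18.9, n = 3). On the log2 scale IDUA was higher by 0.80 (SE 0.23, adjusted p = 0.0410). Without S-AlgLung replicate 3 the log2 fold change was 0.97 with an adjusted p = 0.000110. IDUA lies on chromosome 4 from 986997 to 1004564 (GRCh38, + strand). SLC26A1, a sulfate and oxalate transporter gene on the other strand, overlaps 13.2% of its exon bases, has 21.8% as many counts and was also called higher, with a log2 fold change of 0.83 (adjusted p = 0.0395). Whether counting used strand is not stated by the sources used here, so reads of the 2 genes over those bases cannot be told apart. With DESeq2 size factors in the same test the adjusted p of IDUA was 0.0603, with total counts alone 0.124 and with limma-voom 0.0601, so IDUA was not called in these settings. It was also not called when any 1 library other than S-AlgLung replicate 3 was left out (adjusted p from 0.104 without S-AlgLung replicate 2 to 0.391 without AlgLung replicate 3).

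GUSB, the beta-glucuronidase that acts on glucuronic acid ends in the same chains, had 56.8, 70.6 and 63.3 CPM in AlgLung and 98.6, 101 and 118 CPM in S-AlgLung. Its groups were well apart, with a log2 fold change of 0.73 (SE 0.23), but the adjusted p = 0.0556 missed the threshold. Without S-AlgLung replicate 3 the adjusted p was 0.0385, and with DESeq2's Wald test it was 0.0109. When any other single library was left out GUSB was not called (adjusted p up to 0.443 in edgeR). It was also not called with DESeq2 size factors in edgeR or with limma-voom.

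GLB1, the beta-galactosidase of gangliosides and keratan sulfate, had 146, 186 and 174 CPM in AlgLung and 215, 224 and 206 CPM in S-AlgLung. The sialidase NEU1, which is found in a complex with GLB1 and the protective protein CTSA, had 39.3, 50.8 and 52.2 CPM in AlgLung and 59.2, 66.9 and 55.3 CPM in S-AlgLung. HEXA, the alpha subunit of hexosaminidase A, had 196, 273 and 245 CPM in AlgLung and 296, 289 and 302 CPM in S-AlgLung. In each of the 3 genes every S-AlgLung library was above every AlgLung library, by small margins. The log2 fold changes were 0.35, 0.35 and 0.31, with adjusted p of 0.563, 0.508 and 0.645 in edgeR. For CTSA, the third partner, the log2 fold change was 0.15.

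GAA, the acid alpha-glucosidase that breaks down glycogen, had 422, 520.0 and 399 CPM in AlgLung and 744, 567 and 514 CPM in S-AlgLung. The hydrogels overlapped by a narrow margin, between AlgLung replicate 2 and S-AlgLung replicate 3 (log2 fold change 0.45, SE 0.26, adjusted p = 0.462). NAGLU, an alpha-N-acetylglucosaminidase of heparan sulfate, had 173, 211 and 169 CPM in AlgLung and 213, 186 and 118 CPM in S-AlgLung. Its S-AlgLung libraries reached both above and below those of AlgLung (log2 fold change -0.10, adjusted p = 0.932). The other 4 glycosidases, MAN2B1, FUCA1, MANBA and GLA, had log2 fold changes from 0.07 to 0.34 with overlapping groups.

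Among the 8 sulfatases and their partners, GALNS fell and no other was called (12.5% called, against 5.14% of all tested genes). GALNS had 65.4, 80.1 and 68.5 CPM in AlgLung and 49.2, 42.3 and 31.9 CPM in S-AlgLung. Every S-AlgLung library was below every AlgLung library, and replicate 3 was the lowest. GALNS was 1.74-fold lower in S-AlgLung, at 41.1 ± 8.74 against 71.4 ± 7.74 CPM (mean ± SD, n = 3), with a log2 fold change of -0.80 and an SE of 0.23 (adjusted p = 0.0347). Without S-AlgLung replicate 3 it was -0.67 with an adjusted p = 0.0238, and the call was lost when any 1 AlgLung library or S-AlgLung replicate 2 was left out (adjusted p from 0.0642 to 0.164). GALNS lies on chromosome 16 from 88813734 to 88856970 (GRCh38, - strand). TRAPPC2L on the other strand shares 27 of its exon bases, has 52.0% as many counts and had a log2 fold change of -0.09 (adjusted p = 0.915).

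None of the other sulfatases was called. ARSA, ARSB, IDS and SGSH, which act on sulfatide, dermatan sulfate and heparan sulfate, had log2 fold changes of 0.22, 0.11, -0.04 and 0.24, and the lowest adjusted p among them was 0.689 in SGSH. ARSA had 58.3, 82.6 and 69.8 CPM in AlgLung and 104, 82.9 and 57.7 CPM in S-AlgLung, with replicate 3 below every other library. SUMF1, which makes the formylglycine residue all these sulfatases need, had a log2 fold change of -0.26 (adjusted p = 0.672). Its paralog SUMF2 had 191, 283 and 258 CPM in AlgLung and 233.5, 317 and 260.2 CPM in S-AlgLung, which overlapped (log2 fold change 0.15).

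HGSNAT is the membrane acetyltransferase that prepares heparan sulfate ends for NAGLU. It had 103, 97.5 and 106 CPM in AlgLung and 128, 129 and 123 CPM in S-AlgLung. The libraries of each hydrogel lay close together and did not overlap, but the log2 fold change was only 0.31 (SE 0.23, adjusted p = 0.603).

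Read by substrate, few of the enzymes were called. In heparan sulfate breakdown, which uses IDS, IDUA, SGSH, HGSNAT, NAGLU and GUSB, 1 of the 6 was called, against 5.14% of all tested genes. Their log2 fold changes ran from -0.10 in NAGLU to 0.80 in IDUA. In keratan and chondroitin 6-sulfate breakdown GALNS fell, while GLB1 and HEXA had values of 0.35 and 0.31. Whether IDUA and GALNS differ from each other in response was not tested.

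**Figure D4:**
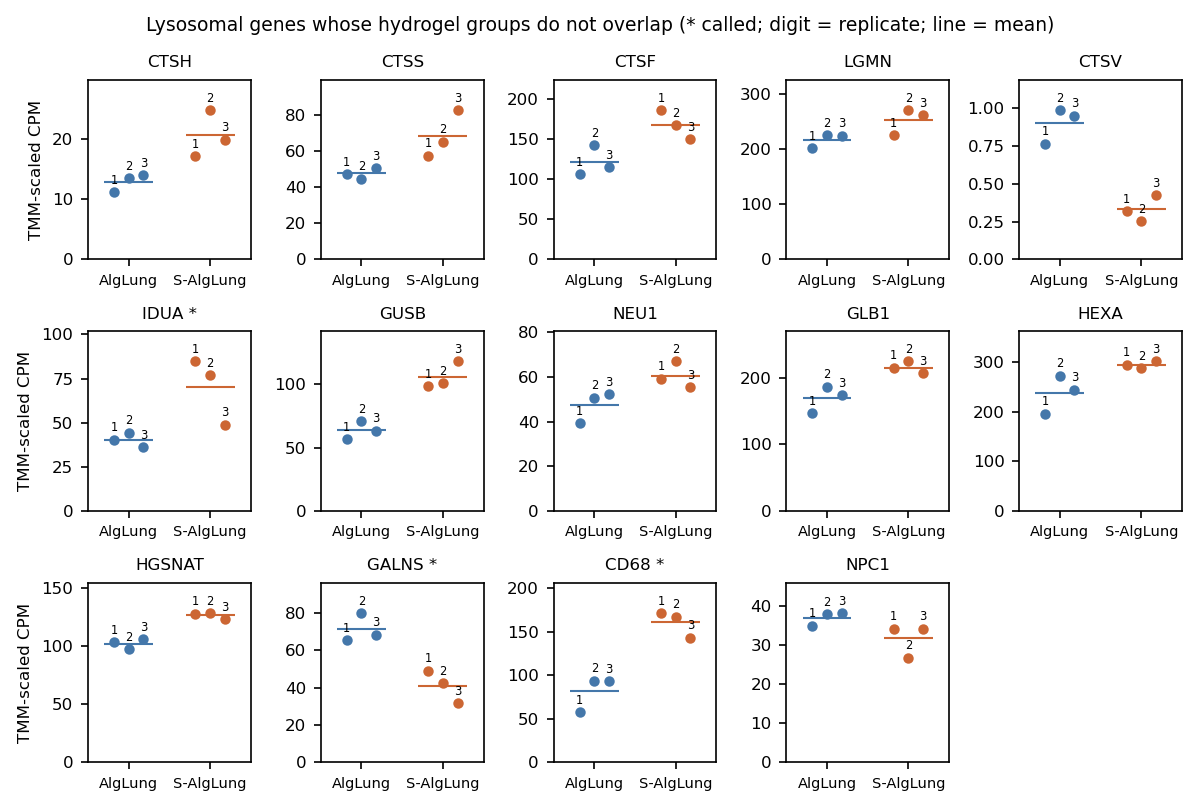
Level in each library (points, numbered by replicate, in TMM-scaled CPM on axes that start at 0) of the 14 lysosomal genes whose hydrogel groups did not overlap, with the group mean as a line; an asterisk marks a called gene. The gap between groups is wide in GUSB, CD68, GALNS and CTSV and narrow in LGMN, NEU1 and NPC1.

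The 3 genes of sphingolipid breakdown differed little between hydrogels. PSAP had 1635, 2239 and 2025 CPM in AlgLung and 2141, 2254 and 2064 CPM in S-AlgLung. Only AlgLung replicate 1 stood below the rest, and the log2 fold change was 0.13 (SE 0.27, adjusted p = 0.906). ASAH1, the acid ceramidase, had 114, 85.2 and 108 CPM in AlgLung and 116, 110.4 and 103 CPM in S-AlgLung (log2 fold change 0.10). SMPD1, the acid sphingomyelinase, had 43.3, 57.3 and 49.8 CPM in AlgLung and 59.9, 54.5 and 37.8 CPM in S-AlgLung (log2 fold change 0.02). Both overlapped, and both changed sign when libraries were scaled by total counts alone.

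Of the 7 membrane and cholesterol export genes, CD68 alone was called (14.3% of the class, against 5.14% of all tested genes). The summed level of the 7 was 467, 531 and 554 CPM in AlgLung and 607, 628 and 594 CPM in S-AlgLung, which did not overlap, and CD68 made up most of the gap. CD68, also used as a macrophage marker, had 57.8, 93.8 and 93.3 CPM in AlgLung and 171, 167 and 143 CPM in S-AlgLung. Every S-AlgLung library was far above every AlgLung library, and AlgLung replicate 1 was the lowest. The mean rose 1.97-fold, from 81.6 CPM (SD 20.6, n = 3) to 160.5 CPM (SD 15.1, n = 3). On the log2 scale CD68 was higher by 0.98 (SE 0.25, adjusted p = 0.0138). Without S-AlgLung replicate 3 it was 1.02 with an adjusted p = 7.37e-05. The call was lost when any 1 AlgLung library or S-AlgLung replicate 1 was left out (adjusted p from 0.0599 to 0.236).

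CD68 lies on chromosome 17 from 7579491 to 7582111 (GRCh38, + strand). A longer gene on the same strand, ENSG00000264772, covers 81.6% of its exon bases and has 654% as many counts. That gene had a log2 fold change of 0.13 (adjusted p = 0.907) and was not called. With so many more counts, it would change little even if it shared all the reads gained by CD68. Its value therefore cannot tell whether the change of CD68 is shared. Reads over the common bases cannot be assigned to either gene from counts.

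Most markers of macrophages and other leukocytes did not pass the filter on low counts. Of the 11 on the list, 3 passed it, and 2 of these were called higher, as CD68 was: CD14, a lipopolysaccharide co-receptor, and the integrin ITGAM. Of all tested genes, 3.15% were called higher. CD14 had 30.3, 37.5 and 30.5 CPM in AlgLung and 64.7, 69.7 and 42.8 CPM in S-AlgLung (log2 fold change 0.85, adjusted p = 0.0225). ITGAM had a log2 fold change of 0.98 (adjusted p = 0.0405), and ITGAX had 0.47 (adjusted p = 0.347). The summed level of the 11 was 41.9 to 50.2 CPM in AlgLung and 64.9 to 84.1 CPM in S-AlgLung, so the groups did not overlap. CD14 alone made up most of that sum. The defining leukocyte gene PTPRC had 5 reads in all 6 libraries together and CSF1R had 4, while CD163, AIF1 and MRC1 had 0 in every library.

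LAMP1 and LAMP2, the main glycoproteins of the lysosomal membrane, had log2 fold changes of -0.16 and 0.04 (adjusted p = 0.864 and 0.978). SCARB2, the receptor that carries glucocerebrosidase to lysosomes, had 0.14, and the calcium channel MCOLN1 had 0.08. All 4 overlapped between hydrogels. NPC1 and NPC2 hand cholesterol out of the lysosome as a pair, and their values had opposite signs.

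NPC1, the membrane partner, had 35.0, 38.0 and 38.3 CPM in AlgLung and 34.3, 26.9 and 34.2 CPM in S-AlgLung. The groups did not overlap but nearly touched, with a log2 fold change of -0.22 and an SE of 0.21 (adjusted p = 0.721). NPC2, the soluble partner, had 42.2, 69.0 and 69.8 CPM in AlgLung and 66.7, 86.3 and 94.9 CPM in S-AlgLung. Its groups overlapped, with a log2 fold change of 0.46 and an SE of 0.24 (adjusted p = 0.396).

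TFEB, the factor named for this pathway, had 7.09, 9.53 and 7.08 CPM in AlgLung and 10.4, 10.9 and 5.33 CPM in S-AlgLung. S-AlgLung replicates 1 and 2 were above all AlgLung libraries and replicate 3 below all of them. The log2 fold change was 0.16 (SE 0.26, adjusted p = 0.867), and 0.40 without replicate 3 (adjusted p = 0.310). Transcript level does not report where in the cell the factor lies.

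The rest of the pathway was read from 7 lists of 128 genes, of which 120 were tested and 4 were called, all higher (3.33%, against 5.14% of all tested genes). None was called among 28 other hydrolases and activators, 21 other membrane proteins, 16 subunits and partners of the proton pump V-ATPase, 13 genes of mannose 6-phosphate and sortilin sorting, and 22 autophagy genes. The medians of these 5 lists lay between -0.07 for the V-ATPase and 0.04 for autophagy, against 0.16 for the 43 lysosomal genes and 0.03 for all genes. The called genes were 3 cystatins and the GTPase gene RRAGD.

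Cystatins are secreted or cytosolic inhibitors of cysteine cathepsins, and 3 of the 5 tested rose more than any of the 43 lysosomal genes. These 3 were called higher, as were 3.15% of all tested genes. The list was chosen with earlier results of these data known, so its share of calls is a description only. CST1 had 1130, 2183 and 1910 CPM in AlgLung and 8129, 9221 and 5147 CPM in S-AlgLung. Its log2 fold change was 2.11 (SE 0.33, adjusted p = 7.61e-05). CST4 had 103, 190.3 and 164 CPM in AlgLung and 907, 831 and 761 CPM in S-AlgLung, and the log2 fold change was 2.45 (SE 0.28, adjusted p = 1.29e-06). CST2 had 24.7, 44.0 and 40.4 CPM in AlgLung and 122, 128 and 100.4 CPM in S-AlgLung, with a log2 value of 1.69 for the change (SE 0.25, adjusted p = 4.15e-05). In all 3 the groups were far apart, and each stayed called in every setting tried; without S-AlgLung replicate 3 the log2 fold changes were 2.29 in CST1, 2.48 in CST4 and 1.75 in CST2. These genes are near copies: 27% of the 50-base stretches of CST1 transcripts also occur in CST4, and 5.34% in CST2, so the counting could split reads between them. CST3, the widely expressed cystatin C, had 710, 1161 and 993 CPM in AlgLung and 1634, 1561 and 879 CPM in S-AlgLung and overlapped (log2 fold change 0.51, adjusted p = 0.450). CSTB, which acts inside cells, had a log2 fold change of -0.24 (adjusted p = 0.745).

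The summed level of the 8 listed cystatins was 2062, 3720 and 3250 CPM in AlgLung and 10900, 11860 and 6980 CPM in S-AlgLung. The S-AlgLung sums thus exceeded the AlgLung sums, and they were of the same order as the sums of all 43 lysosomal genes given above. The ratio of inhibitor to protease transcripts was not tested, and transcript counts give no measure of enzyme activity.

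RRAGD, a Rag GTPase that links amino acid supply at the lysosome to mTORC1 and the TFEB family, had 4.48, 3.10 and 5.63 CPM in AlgLung and 7.98, 7.73 and 10.3 CPM in S-AlgLung. Its groups did not overlap, and it rose 1.96-fold (log2 fold change 0.97, SE 0.26, adjusted p = 0.0210). That call was lost with total counts alone (adjusted p = 0.149) and without AlgLung replicate 1 (0.0981) or 2 (0.148). Leaving out S-AlgLung replicate 3 gave 0.80 (adjusted p = 0.0200). The related factor MITF had a log2 fold change of 0.51 (adjusted p = 0.276), with groups that did not overlap, and TFE3 had -0.04. FNIP1 and LAMTOR1, which regulate Rag GTPases, had -0.36 and -0.27 and were not called.

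**Figure D5:**
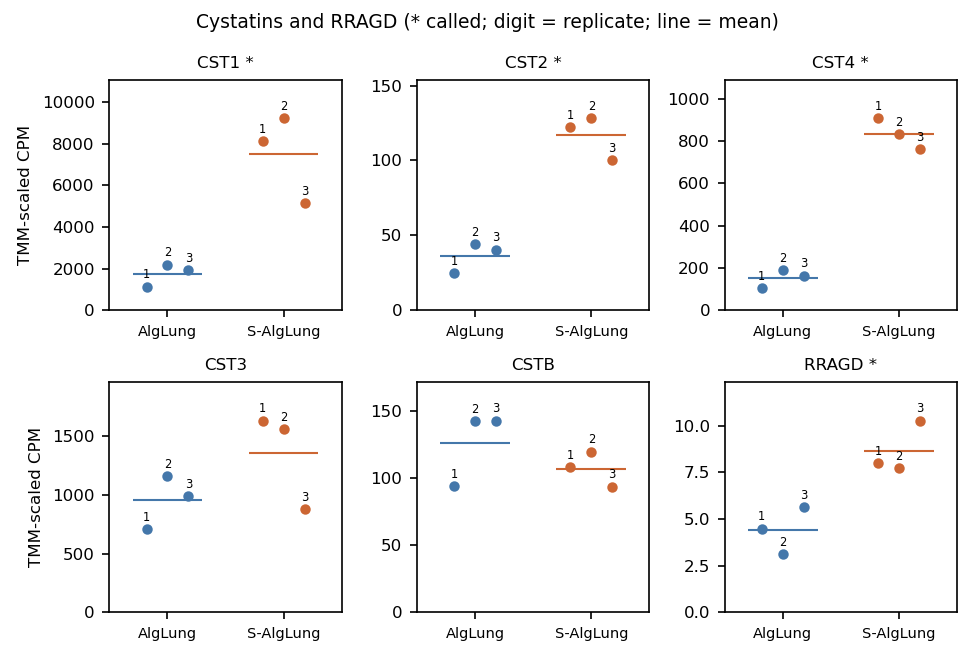
Level in each library (points, numbered by replicate, in TMM-scaled CPM on axes that start at 0) of the 5 tested cystatins and RRAGD, with group means as lines; an asterisk marks a called gene. CST1, CST2, CST4 and RRAGD do not overlap between hydrogels, whereas CST3 and CSTB do.

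The hydrolases outside the 43 with the smallest p were HYAL1 and GGH, and neither was called. HYAL1, a lysosomal hyaluronidase, had 3.56, 6.30 and 6.71 CPM in AlgLung and 11.4, 8.36 and 6.61 CPM in S-AlgLung, which overlapped (log2 fold change 0.67, adjusted p = 0.197); without S-AlgLung replicate 3 it was 0.81 with an adjusted p = 0.0120. GGH, which trims folate polyglutamates, had a log2 fold change of -0.57 (adjusted p = 0.232), and -0.69 with an adjusted p = 0.0489 when that library was left out. Over all fits without 1 library, the adjusted p reached 0.738 in HYAL1 and 0.552 in GGH. Of the listed membrane proteins, the tetraspanin CD63 had 0.48 and the amino acid sensor SLC38A9 had -0.38. The V-ATPase subunits ATP6V1C1 and ATP6V1D had -0.43 and -0.32. GNPTAB, the phosphotransferase that starts the mannose 6-phosphate tag, had -0.47, and the sorting adaptor GGA3 had 0.38. The autophagy genes TAX1BP1 and WIPI1 had -0.47 and 0.45. None of these 10 genes passed the test with all 6 libraries.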

How the data were processed

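TRIzol and a column kit were used for RNA, and an outside company made and sequenced the libraries, per the labels' protocols. The authors used STAR 2.7.3a and featureCounts, per the submitters' processing notes. The annotation and the strand setting of the counting are not given in the sources. What was deposited is a table of raw, whole-number read counts for each gene. Of the gene IDs, 62625 were found in the name table, and 42300 of the genes carry a symbol. A pair of columns for AlgLung replicate 1 (2 columns, 0 genes different) was used as 1 sample.

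Counts were kept with filterByExpr (minimum count 10), scaled with TMM factors and tested with edgeR 4.0.16 (quasi-likelihood F test, no block, R 4.3.3) using the 6 libraries. The Benjamini-Hochberg adjustment covered 18544 genes, with calls at an adjusted p under 0.05. The standard error was taken as |log2 fold change| / sqrt(F). The biological coefficient of variation was 0.215. Length-scaled levels used the exon bases listed in the table. Alternatives used DESeq2 1.42.0, limma 3.58.1, other scalings and filters, a block and each library left out. GC and length offsets (loess span 0.3) were chosen after seeing the data. The script was tested on simulated data. The 43 genes and all lists were chosen with earlier results of these data known. Genes given by library were those called, those with groups that did not overlap, and, in each class, the 2 with the smallest p and the 2 with the highest length-scaled level; CTSK, CTSL and CSTB were added after their values were seen. Pathway genes were named where called (up to 4 in a list) or by the smallest p, with TFE3 added for its role.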

Additional observations from a re-analysis of the deposited data

How the results depend on the processing

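The number of lysosomal genes called was small in every setting and moved with most of them. Against 2 higher and 1 lower, there was 1 higher with DESeq2 size factors, with total counts alone and with limma-voom, and 0 higher and 0 lower at an adjusted p under 0.01. In these settings 4.75%, 3.6%, 4.56% and 2.91% of all tested genes were called, against 5.14% in the main fit. GC and length offsets gave 4 higher (CTSS, GUSB, IDUA and CD68), with 5.51% of all tested genes called. Over the fits without 1 library each, the number ran from 0 to 4 higher and from 0 to 2 lower, with 4 and 2 without S-AlgLung replicate 3. The share of all tested genes called moved too, from 2.87% without AlgLung replicate 1 to 8.28% without S-AlgLung replicate 3. Of all genes, 584 were called higher and 369 lower. Total counts alone gave 333 higher, and an adjusted p under 0.01 gave 323 higher and 217 lower. Leaving out 1 library gave 289 to 891 higher and 244 to 662 lower genes. With the replicate number as a block, 4 lysosomal genes were higher (CTSH, GUSB, IDUA and CD68) and 1300 genes were called in all. The main fit used no block, since the labels state no batch. Deviations of same-numbered libraries correlated at 0.08, 0.36 and 0.09, and those of differently numbered ones at -0.40 to 0.23. Deviations within a hydrogel sum to 0, so these values cannot settle whether the libraries were paired.

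Over 61 genes and 914 alternatives, 849 values kept their direction and side of the threshold and 33 changed sign, all in genes that were not called. Under total counts alone the log2 fold changes became -0.012 in ASAH1, -0.099 in SMPD1, -0.029 in GLA, -0.064 in LAMP2 and -0.045 in MCOLN1. SMPD1 was at -0.02 with upper-quartile factors and 0 with the block. GC and length offsets gave -0.095 in SMPD1, -0.006 in GLA, 0.014 in IDS and -0.032 in MCOLN1. The other sign changes came from leaving out 1 library, and the ranges were -0.361 to 0.045 in CTSD, -0.277 to 0.086 in NAGLU, -0.047 to 0.263 in SUMF2, -0.016 to 0.137 in ASAH1, -0.123 to 0.159 in SMPD1, -0.033 to 0.231 in PSAP, -0.016 to 0.400 in TFEB, -0.071 to 0.301 in CTSA, -0.081 to 0.286 in CTSC, -0.108 to 0.164 in GLA, -0.190 to 0.098 in IDS, -0.141 to 0.282 in ARSB, -0.060 to 0.094 in LAMP2 and -0.092 to 0.282 in MCOLN1. The causes of these changes were not tested. With 3 libraries a hydrogel and a median standard error of 0.24, differences of the size seen in most of the 43 genes could not be told from 0, and CTSV and CTSK rest on few reads.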

Other observations

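Of the glycosaminoglycan-degrading enzymes outside the 43 genes, the sulfatases ARSG and ARSK had values of opposite sign and were not called. ARSG, a lysosomal sulfatase of heparan sulfate, had 13.9, 13.8 and 15.8 CPM in AlgLung and 16.3, 15.8 and 26.2 CPM in S-AlgLung, with S-AlgLung replicate 3 well above the rest (log2 fold change 0.42, adjusted p = 0.410 in edgeR). ARSK, which removes 2-sulfates from glucuronate, had a log2 fold change of -0.33 (adjusted p = 0.692). The endoglycosidase HPSE, which cuts heparan sulfate chains, rested on 71 reads in all 6 libraries and had -1.09 (adjusted p = 0.345). These 3 genes were chosen for their substrates after their values were seen.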
